A study of Homo sapiens with 24 samples.

Results

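The squamous lineage transcription factors described here are TP63, SOX2, KLF4, KLF5, GRHL1, GRHL3, OVOL1, ELF3 and ZNF750. They were taken by gene name from a table of 58735 genes, and all 9 were found and passed the filter on low counts, among 15956 genes tested. The study used SAS cells, an oral squamous cell carcinoma line, that carried either wild-type NRF2 (WT) or the E79Q form of NRF2, a variant in the region of the protein that the repressor KEAP1 binds. Cells received vehicle or 0.1 µM CB-839, an inhibitor of glutaminase, and were irradiated with 4 Gy of X-rays or not. This gave 8 groups of 3 libraries each: untreated WT, untreated E79Q, WT with CB-839, E79Q with CB-839, irradiated WT, irradiated E79Q, irradiated WT with CB-839 and irradiated E79Q with CB-839. Irradiated cells had the drug or vehicle from 24 h before the exposure, and their RNA was collected 24 h afterwards. How the E79Q form was introduced, whether a line came from 1 clone, and how long the unirradiated cells were treated are points on which the sources used here are silent. The labels do not say that replicates were separate cultures, so the p-values measure the spread between these libraries, which may be technical.

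In stratified epithelium, p63 holds the basal, proliferating state and opens the enhancers of keratinocyte genes. As cells leave the basal layer, further factors (KLF4, ZNF750, GRHL3 and ELF3) switch on genes of the barrier, the cell junctions and the cornified envelope. OVOL1 is a repressor of mesenchymal and progenitor genes. KLF5 is active in proliferating epithelial cells, GRHL1 controls desmosomal cadherins, and SOX2 is a stem cell factor that is often gained together with TP63 in squamous carcinomas.

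All 9 are protein-coding genes, placed by the deposited table on GRCh38. TP63 (ENSG00000073282) lies at chr3:189631416-189897279 and SOX2 (ENSG00000181449) at chr3:181711924-181714436, both on the + strand of the same chromosome arm. KLF4 (ENSG00000136826) is at chr9:107484852-107490482 on the − strand and KLF5 (ENSG00000102554) at chr13:73054976-73077542 on the + strand. ELF3 (ENSG00000163435) at chr1:202007945-202017188 and GRHL3 (ENSG00000158055) at chr1:24319322-24364482 share chromosome 1, both on the + strand. GRHL1 (ENSG00000134317) is at chr2:9951693-10002277 and OVOL1 (ENSG00000172818) at chr11:65787022-65797219, on the + strand, and ZNF750 (ENSG00000141579) at chr17:82829435-82840578 on the − strand.

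Promoter windows, taken from RefSeq on GRCh38.p14, covered 250 bases before to 50 bases after a start site, and 7 of the 9 genes had at least 1 (9 windows in all; OVOL1 and ZNF750 had no entry). Windows are printed for the 3 genes with the largest called differences between the genotypes in their response to a treatment. Capitals mark a TATA box in ELF3 (chr1:202010337-202010636, + strand), 4 GC boxes in KLF4 (chr9:107489720-107490019, − strand) and an antioxidant response element core, the motif that NRF2 binds with a small MAF protein, in the second of 2 GRHL3 windows (chr1:24322790-24323089, + strand). All 3 printed windows lie inside their genes as placed above and do not hold the deposited gene start. The first GRHL3 window (chr1:24319107-24319406), which holds the deposited gene start, is not printed. It had a GC box and no antioxidant response element core.
ELF3: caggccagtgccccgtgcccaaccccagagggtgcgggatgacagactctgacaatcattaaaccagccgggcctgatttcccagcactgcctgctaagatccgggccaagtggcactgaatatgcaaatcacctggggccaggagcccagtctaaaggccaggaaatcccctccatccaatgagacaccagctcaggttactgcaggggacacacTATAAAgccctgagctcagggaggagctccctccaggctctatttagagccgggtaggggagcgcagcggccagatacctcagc
KLF4: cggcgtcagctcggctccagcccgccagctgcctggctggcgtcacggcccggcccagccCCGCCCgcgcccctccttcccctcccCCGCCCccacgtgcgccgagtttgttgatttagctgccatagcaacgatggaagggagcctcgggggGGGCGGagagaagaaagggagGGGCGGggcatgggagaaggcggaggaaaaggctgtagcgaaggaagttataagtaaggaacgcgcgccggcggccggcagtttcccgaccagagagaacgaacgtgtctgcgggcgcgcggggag
GRHL3: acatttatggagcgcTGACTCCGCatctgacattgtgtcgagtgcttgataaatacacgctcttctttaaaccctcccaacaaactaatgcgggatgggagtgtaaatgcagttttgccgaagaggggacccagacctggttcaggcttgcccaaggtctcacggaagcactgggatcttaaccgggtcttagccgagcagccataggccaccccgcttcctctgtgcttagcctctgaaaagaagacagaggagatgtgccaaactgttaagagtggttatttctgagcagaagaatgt
The motifs were searched on both strands. The antioxidant response element core, spelled TGACNNNGC, was in 1 of the 9 windows and in 13.3% of 35116 windows of the same length. It lay 235 to 227 bases before the start site of the second GRHL3 window, as TGACTCCGC. This motif can overlap the AP-1 site TGANTCA, which was in none of the 9 windows and in 7.71% of all windows. The amino acid response element TGATGNAAT was in none of the 9 and in 0.991% of all. The GC box GGGCGG was in 5 of the 9 windows, with 4 matches in KLF4, and in 45% of all. The TATA box TATAAA was in 3 of the 9, among them ELF3 at 34 to 29 bases before the start site of its window, and in 11.5% of all. A match describes letters only and is not a measured binding site.

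Total counts per library were between 14285084 and 23640197, and mitochondrial genes took 1.93% to 3.55% of them. NQO1, a target of NRF2, was higher in E79Q cells in all 4 genotype comparisons, by 0.73 to 0.95 on the log2 scale. The epithelial markers EPCAM (group means of 215 to 295 CPM, the count scaled to library size) and KRT5 (678 to 1485 CPM) were high in every group. KRT5 was still called lower in E79Q than in WT cells under CB-839 (log2 difference -0.96) and after both treatments (-0.51). Its other genotype comparisons are not given here. Of the other markers chosen for this check, CDH1, KRT14 and KRT17 were called lower in untreated E79Q than in WT cells (log2 differences of -0.93, -1.49 and -1.38). TP63 is described below, and the level of KRT6A is not given. Of 10 markers of leukocytes, endothelium and fibroblasts, 5 were high enough to be tested, and 22 of the 24 libraries had no PTPRC read. Their summed level was 5.97 to 11.8 CPM except in library 2 of untreated E79Q cells, at 47.1 CPM, of which COL1A1 and COL1A2 made up 29.5 and 15.3 CPM; calls of the 9 factors that change without this library are given both ways, and counts of gene lists without it follow the lists. The text deposited with the series describes the 12 irradiated libraries, and nothing tells whether the unirradiated ones were prepared alongside; a batch and the radiation effect therefore cannot be told apart.

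Per length, TP63 and KLF5 stood far above the other lineage factors. Their mean levels over the 8 groups were 25.2 and 22.1 RPKM (CPM divided by gene length in kilobases). ELF3 followed at 3.0, KLF4 at 2.11, OVOL1 at 1.17 and SOX2 at 0.985 RPKM, and GRHL3, GRHL1 and ZNF750 lay at 0.313, 0.293 and 0.161 RPKM. The range over groups ran the other way for the top pair: the highest group mean exceeded the lowest by 1.66-fold for TP63 and 1.77-fold for KLF5, by 13.1-fold for ELF3, by 7.02-fold for GRHL3 and by 4.51-fold for KLF4. Counts were at least 2346 per library for TP63 and 880 for KLF5, but only 4 to 21 for ZNF750, 2 to 46 for GRHL3, 16 to 80 for GRHL1 and 23 to 78 for SOX2, which limits what could be detected for those genes.

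**Figure D1:**
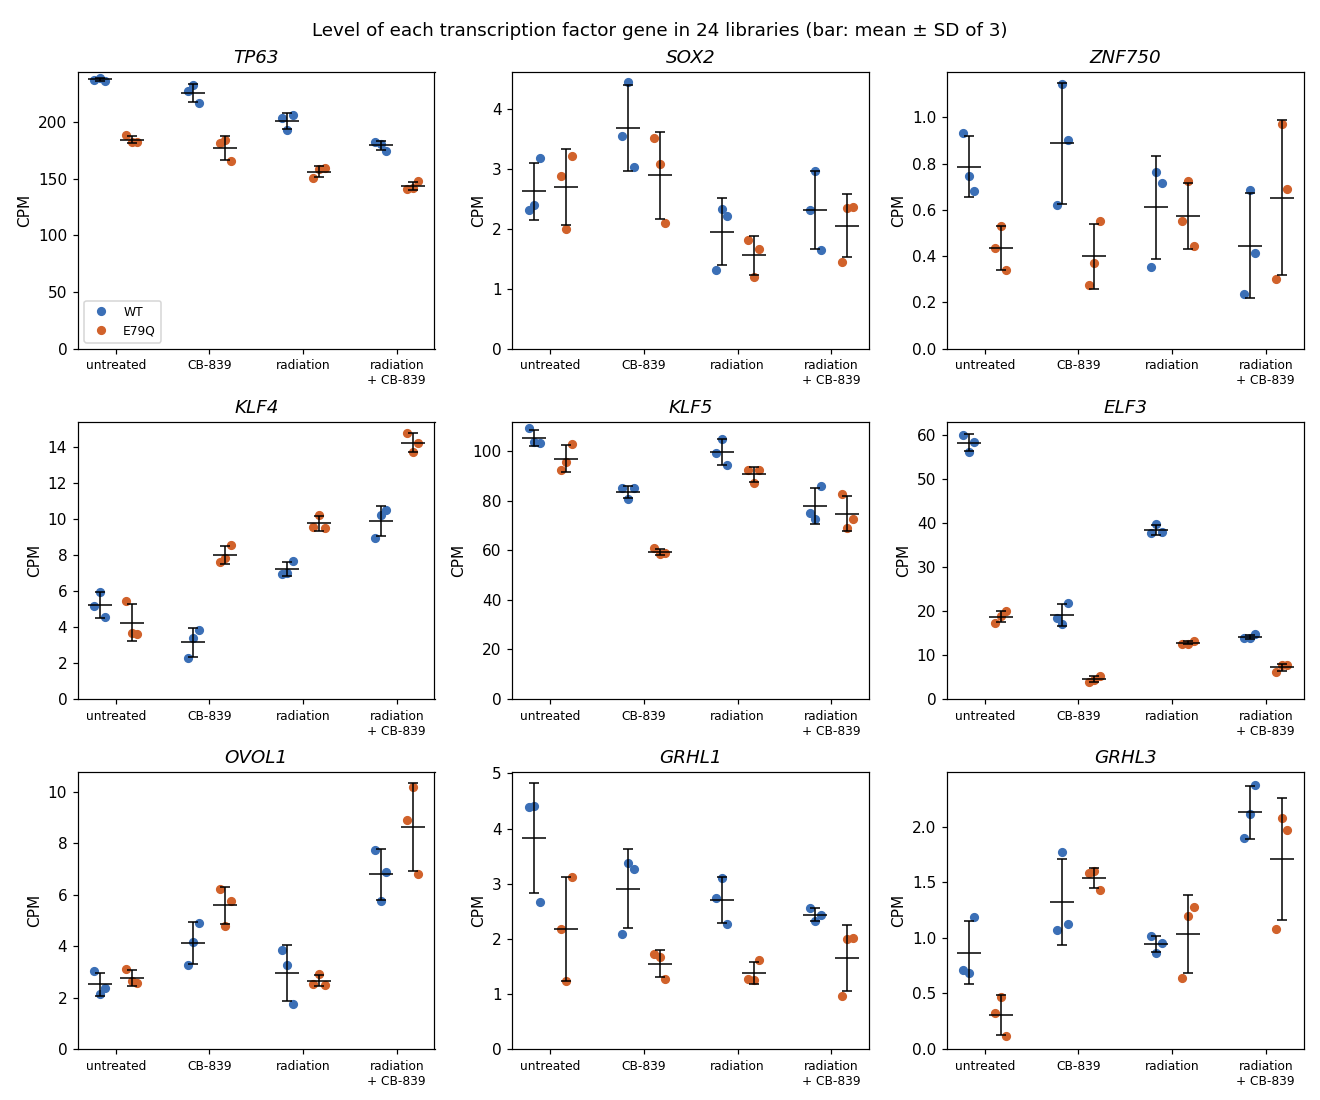
Level of each of the 9 transcription factors in CPM, by treatment and genotype, on linear axes that start at 0; points are libraries and bars are the mean ± SD of 3. ELF3 falls from 58.1 CPM in untreated WT cells to 4.45 CPM in E79Q cells with CB-839, while TP63 stays between 143 and 237 CPM.

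A gene was called where edgeR's quasi-likelihood test gave an adjusted p under 0.05 after Benjamini-Hochberg adjustment over all tested genes. Between E79Q and WT cells, 4 of the 9 factors were called in untreated cells, all lower, where 19.7% of all tested genes were called. Under CB-839, 5 were called (1 higher, 4 lower; 15.0% of all genes). After radiation, 4 were called (1 higher, 3 lower; 9.64% of all genes), and after radiation with CB-839, 3 (1 higher, 2 lower; 7.26% of all genes). The median log2 difference of the 9 was -0.36, -0.36, -0.17 and -0.15 in that order, beside medians over all genes of -0.01, 0.01, 0.01 and -0.00.

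Radiation without drug called 3 of the 9 in WT cells (1 higher, 2 lower; 17.9% of all genes) and 5 in E79Q cells (2 higher, 3 lower; 22.3% of all genes). Under CB-839, radiation called 4 in WT cells (2 higher, 2 lower; 23.7% of all genes) and 5 in E79Q cells (4 higher, 1 lower; 29.2% of all genes). CB-839 alone called 4 in WT cells (1 higher, 3 lower; 14.8% of all genes) and 5 in E79Q cells (3 higher, 2 lower; 19.8% of all genes). In irradiated cells CB-839 called 6 in WT (3 higher, 3 lower; 9.53% of all genes) and 4 in E79Q (2 higher, 2 lower; 26.0% of all genes). Comparisons in these families share libraries: untreated E79Q cells, for example, enter a genotype, a radiation and a drug comparison.

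Whether an effect differed between the genotypes was tested directly. For radiation without drug no factor was called (1.26% of all genes), with 2 of the 9 at an unadjusted p under 0.05 and 1 called by DESeq2. For radiation under CB-839, 2 were called, both more positive in E79Q cells (1.08% of all genes). For CB-839 in unirradiated cells, 4 were called, 2 in each direction (14.3% of all genes), and for CB-839 in irradiated cells 1 was called (1.91% of all genes).

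TP63, the gene of the basal layer's lineage factor p63, was lower in E79Q than in WT cells under every treatment, by a nearly constant amount. Untreated WT libraries stood at 237, 239 and 236 CPM and untreated E79Q libraries at 188, 182 and 183 CPM. With CB-839 the values were 227, 232 and 217 CPM in WT and 181, 184 and 165 CPM in E79Q. The genotypes did not overlap in either pair, nor in the irradiated groups. Irradiated WT libraries had 203, 193 and 206 CPM and irradiated E79Q libraries 151, 158 and 159 CPM, and with both treatments the values were 182, 181 and 175 against 141, 142 and 148 CPM. The log2 difference between genotypes was -0.36 (SE 0.048, adjusted p = 2.3e-06) in untreated cells, -0.35 (adjusted p = 4.94e-06) with CB-839, -0.37 (adjusted p = 3.82e-06) after radiation and -0.32 (adjusted p = 4.56e-05) after both, a level 1.25 to 1.29 times lower.

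Radiation also lowered TP63 in all 4 settings. The log2 change was -0.24 in WT cells (adjusted p = 0.000629), -0.24 in E79Q cells (adjusted p = 0.000539), -0.33 in WT cells under CB-839 (adjusted p = 1.05e-05) and -0.30 in E79Q cells under CB-839 (adjusted p = 5.01e-05). The genotypes' radiation effects differed by -0.00 without drug (95% interval -0.15 to 0.14) and by 0.03 under CB-839 (-0.12 to 0.17). CB-839 moved TP63 little: the changes were -0.07 and -0.06 in unirradiated WT and E79Q cells and -0.12 in irradiated E79Q cells, none called. In irradiated WT cells the change of -0.16 was called (adjusted p = 0.0307), but not without the filter on low counts (adjusted p = 0.202), nor without any one of 5 of the 6 libraries compared (all but library 2 of irradiated WT; adjusted p = 0.0764 to 0.178).

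SOX2, the stem cell factor, was low throughout, between 1.19 and 4.46 CPM over the 24 libraries, and group ranges overlapped between every pair of neighbours in the order of group means. The means ran from 3.68 ± 0.719 CPM in WT cells with CB-839, through 2.90 ± 0.726 in E79Q with CB-839 and 2.63 ± 0.476 in untreated WT, to 1.96 ± 0.556 in irradiated WT (SD, n = 3). With both treatments they were 2.31 ± 0.654 CPM in WT and 2.05 ± 0.529 CPM in E79Q cells. Untreated E79Q libraries had 2.88, 2.0 and 3.23 CPM and irradiated E79Q libraries 1.82, 1.19 and 1.67 CPM, without overlap. This was the one of 12 comparisons in which SOX2 was called, with a log2 change of -0.78 (SE 0.28, adjusted p = 0.0445). The call was lost without E79Q libraries 1 or 3 of the untreated group or 2 or 3 of the irradiated group (adjusted p = 0.0728 to 0.164). In WT cells under CB-839 the radiation change was -0.67 (adjusted p = 0.0593), called by DESeq2 (adjusted p = 0.0488) and without library 3 of WT with CB-839 or library 2 of the irradiated group (adjusted p = 0.0465 and 0.0331). The genotype difference in untreated cells was 0.04 with a 95% interval of -0.52 to 0.61, so changes of up to that size could not be seen at this depth.

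KLF5, a factor of proliferating epithelial cells, was lowered by CB-839 in all 4 settings. Untreated WT libraries had 109, 104 and 103 CPM and WT libraries with CB-839 84.9, 80.8 and 84.9 CPM. Untreated E79Q libraries had 92.3, 95.4 and 103 CPM and E79Q libraries with CB-839 60.7, 58.3 and 59.1 CPM. The drug groups lay below the vehicle groups in both genotypes, and E79Q cells with CB-839 were the lowest of the 8 groups. The log2 change was -0.33 in WT cells (SE 0.067, adjusted p = 0.000864) and -0.71 in E79Q cells (SE 0.069, adjusted p = 2.12e-08), and these differed by -0.37 (SE 0.096, adjusted p = 0.00904).

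In irradiated cells the KLF5 values were 99.2, 105 and 94.6 CPM in WT and 92.2, 87.1 and 92.4 CPM in E79Q without drug. With CB-839 they were 75.0, 72.4 and 86.1 CPM in WT and 82.5, 69.0 and 72.6 CPM in E79Q. CB-839 lowered KLF5 in both genotypes here, by -0.36 in WT (adjusted p = 0.00108) and -0.28 in E79Q (adjusted p = 0.00319), the latter not called when the compared groups were fitted alone (adjusted p = 0.0694). Radiation raised KLF5 in E79Q cells under CB-839 only among its 4 radiation comparisons, by 0.33 (adjusted p = 0.000814), and this differed from WT cells by 0.43 (SE 0.097, adjusted p = 0.0206). That difference was not called with the compared groups alone (adjusted p = 0.158), nor without libraries 2 or 3 of E79Q with CB-839 or library 2 of irradiated WT with CB-839 (adjusted p = 0.0612 to 0.0746). Between genotypes KLF5 was called in unirradiated cells with CB-839, at -0.49 (SE 0.069, adjusted p = 6.16e-06). Its difference of -0.14 after radiation had an adjusted p of 0.246, and of 0.0153 with the compared groups alone.

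KLF4, which drives terminal differentiation and barrier formation, moved in opposite directions with CB-839 in the 2 genotypes. Without treatment, WT libraries had 5.17, 5.96 and 4.54 CPM and WT libraries with CB-839 2.26, 3.37 and 3.83 CPM. Untreated E79Q libraries had 5.44, 3.64 and 3.62 CPM and E79Q libraries with CB-839 7.58, 7.81 and 8.55 CPM. The drug group was the lower one in WT cells and the higher one in E79Q cells, with no overlap in either. The log2 change was -0.73 in WT cells (SE 0.17, adjusted p = 0.00358) and 0.91 in E79Q cells (SE 0.16, adjusted p = 9.19e-05). The difference between them, 1.64 (SE 0.23, adjusted p = 1.34e-05), was called in every alternative analysis.

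Radiation raised KLF4 in all 4 settings. Irradiated WT libraries had 6.94, 7.01 and 7.65 CPM and irradiated E79Q libraries 9.54, 10.2 and 9.46 CPM. With radiation and CB-839 the values were 8.91, 10.2 and 10.5 CPM in WT and 14.7, 13.7 and 14.2 CPM in E79Q, the highest group. The rise was 1.64 in WT cells under CB-839 (SE 0.16, adjusted p = 1.16e-08), 1.20 in E79Q cells (SE 0.15, adjusted p = 9.05e-07), 0.83 in E79Q cells under CB-839 (adjusted p = 5.55e-05) and 0.46 in WT cells (adjusted p = 0.0324). The last was lost without the filter (adjusted p = 0.0549) and without any one of 5 of the 6 libraries compared (all but library 2 of untreated WT; adjusted p = 0.0614 to 0.155). The genotypes' radiation effects differed by 0.73 without drug (adjusted p = 0.0968) and by -0.82 under CB-839 (adjusted p = 0.0531), neither called; DESeq2 called both (adjusted p = 0.0449 and 0.0173). Leaving out library 1 of untreated E79Q gave 0.95 for the first (adjusted p = 0.0194), and leaving out library 3 of WT with CB-839, or library 1 of either group with both treatments, gave -0.84 to -0.98 for the second (adjusted p = 0.0305 to 0.0481). The first was also called with the compared groups alone (adjusted p = 0.042), but not with RLE size factors, no filter or a replicate block. A run added after seeing the data left out the 4 libraries with the highest correlation with gene GC content. It gave 0.96 for the first (adjusted p = 0.00353) and -1.02 for the second (adjusted p = 0.00554).

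Between genotypes KLF4 was higher in E79Q cells under CB-839, by 1.34 or 2.53-fold (SE 0.16, adjusted p = 5.85e-07), and in irradiated cells under CB-839, by 0.53 (adjusted p = 0.0101). The second was lost with the compared groups alone (adjusted p = 0.0628) and without library 1 of irradiated WT with CB-839 (adjusted p = 0.057). After radiation alone the difference of 0.44 (adjusted p = 0.0422) was lost without any one of the 6 libraries (adjusted p = 0.0715 to 0.156) and without the filter (adjusted p = 0.066). In untreated cells it was -0.30 (adjusted p = 0.222), and -0.52 without library 1 of the E79Q group (adjusted p = 0.036). In irradiated cells CB-839 raised KLF4 by 0.46 in WT (adjusted p = 0.0365) and 0.54 in E79Q (adjusted p = 0.00277). The WT call was lost without any one of the 3 irradiated libraries or of libraries 2 and 3 with CB-839 (adjusted p = 0.0638 to 0.108).

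ELF3, an ETS-family factor of differentiating epithelium, was called in all 12 comparisons of 2 groups and held the largest genotype effect among the 9. Levels in untreated WT libraries were 60.0, 56.1 and 58.3 CPM and untreated E79Q libraries 17.3, 18.9 and 19.9 CPM. With CB-839 the values were 18.4, 17.0 and 21.8 CPM in WT and 3.93, 4.25 and 5.19 CPM in E79Q. WT cells with CB-839 and untreated E79Q cells overlapped, the one overlap between neighbours in the order of the 8 groups. The genotype difference was -1.64 in untreated cells (SE 0.087, adjusted p = 8.76e-14), 3.11-fold lower in E79Q, and -2.09 under CB-839 (SE 0.11, adjusted p = 1.04e-13), 4.25-fold lower.

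In irradiated cells ELF3 stood at 37.6, 39.7 and 37.8 CPM in WT and at 12.5, 12.6 and 13.1 CPM in E79Q. With CB-839 as well the values were 13.7, 13.8 and 14.6 CPM in WT and 6.20, 7.67 and 7.68 CPM in E79Q. The genotype groups did not overlap under either treatment, with differences of -1.59 (SE 0.090, adjusted p = 4.13e-13) and -0.96 (SE 0.10, adjusted p = 2.31e-07). CB-839 lowered ELF3 by -1.60 in WT cells (SE 0.087, adjusted p = 1.93e-13) and by -2.06 in E79Q cells (SE 0.11, adjusted p = 2.57e-13). In irradiated cells it did so by -1.45 in WT (adjusted p = 1.41e-11) and by -0.81 in E79Q (adjusted p = 2.12e-06). All of these calls held in every alternative analysis.

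Radiation lowered ELF3 in 3 of the 4 settings and raised it in the other. The change was -0.60 in WT cells (SE 0.082, adjusted p = 4.28e-06), -0.56 in E79Q cells (adjusted p = 7.84e-05) and -0.44 in WT cells under CB-839 (adjusted p = 0.000928). In E79Q cells under CB-839 the irradiated libraries were all above the unirradiated ones, a rise of 0.69 (SE 0.12, adjusted p = 0.00019). The genotypes' radiation effects differed by 1.13 under CB-839 (SE 0.16, adjusted p = 0.000104) and by 0.04 without it (95% interval -0.22 to 0.31). The drug effects differed by -0.45 in unirradiated cells (adjusted p = 0.0356) and by 0.64 in irradiated cells (SE 0.14, adjusted p = 0.0127). The -0.45 was lost without the filter (adjusted p = 0.0627) and without any one of 7 of the 12 libraries (library 2 or 3 of untreated WT, 2 or 3 of untreated E79Q, 3 of WT with CB-839, or 1 or 2 of E79Q with CB-839; adjusted p = 0.0554 to 0.12). The 0.64 was lost without library 3 of irradiated E79Q with CB-839 (adjusted p = 0.0512).

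ELF3 shares its locus with an antisense gene, ELF3-AS1. The strand setting of the counting is not given in the sources used here, so reads where they overlap may be missing or assigned to the wrong gene. ELF3-AS1 had 33 to 96 counts per library, group means of 2.17 to 4.61 CPM, and was called in 1 of the 16 comparisons, -0.74 with CB-839 in irradiated WT cells (adjusted p = 0.028). GRHL3 overlaps STPG1 (74 to 177 counts, called in no comparison) and ZNF750 overlaps TBCD (1656 to 3132 counts).

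**Figure D2:**
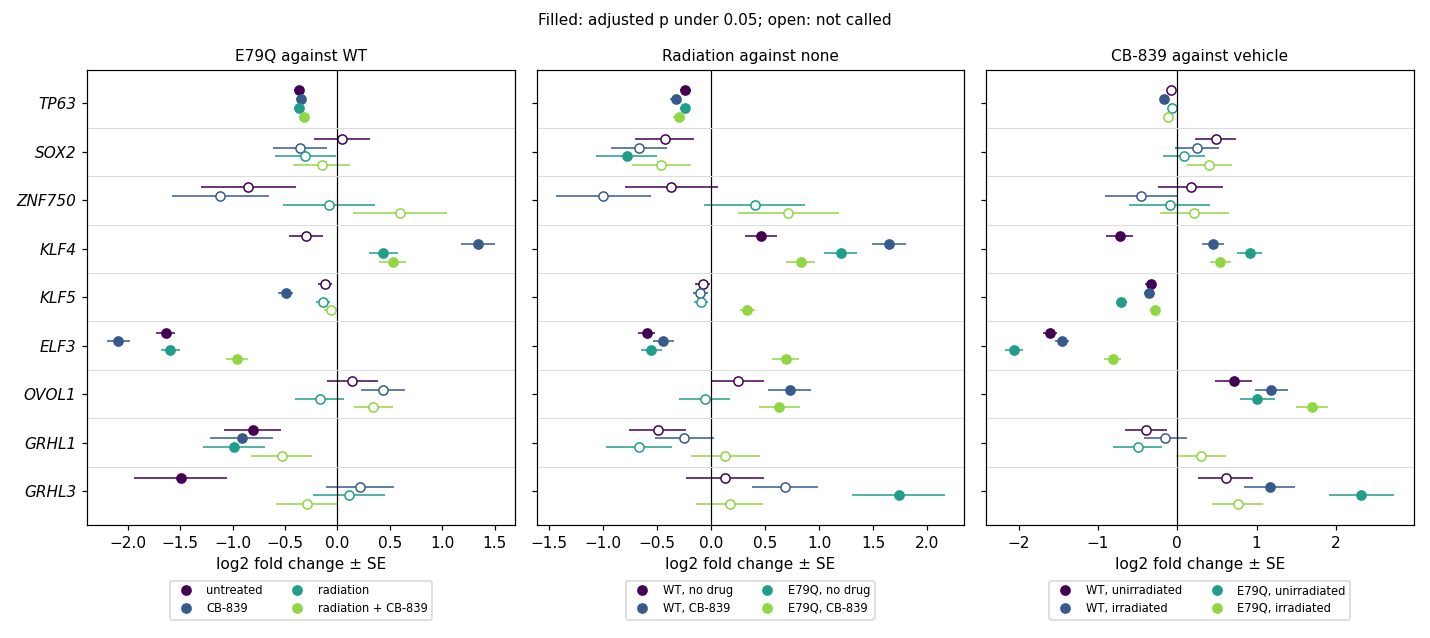
Log2 fold change of each factor in the 12 comparisons of 2 groups, with filled points called at an adjusted p under 0.05 and bars of 1 SE. ELF3 is called in all 12, with one positive value at 0.69 for radiation in E79Q cells under CB-839; TP63 lies below 0 for genotype and radiation.

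OVOL1, a zinc finger repressor that turns off mesenchymal and progenitor genes, rose with CB-839 in all 4 settings. Untreated WT libraries had 3.02, 2.12 and 2.38 CPM and WT libraries with CB-839 3.27, 4.17 and 4.90 CPM. Untreated E79Q libraries had 3.10, 2.65 and 2.55 CPM and E79Q libraries with CB-839 6.21, 4.80 and 5.74 CPM. The groups did not overlap in either genotype. The log2 change was 0.71 in WT cells (SE 0.23, adjusted p = 0.0361) and 1.01 in E79Q cells (SE 0.22, adjusted p = 0.00155). The WT call was lost without any one of libraries 2 and 3 of either group (adjusted p = 0.0902 to 0.167).

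In irradiated cells OVOL1 went from 3.85, 3.25 and 1.73 CPM to 7.73, 5.76 and 6.87 CPM with CB-839 in WT cells. In E79Q cells it went from 2.54, 2.91 and 2.51 CPM to 8.90, 10.2 and 6.79 CPM. These were rises of 1.19 (SE 0.21, adjusted p = 0.000467) and 1.70 (SE 0.21, adjusted p = 9.03e-07), the latter 3.25-fold, and they differed by 0.51 (95% interval -0.11 to 1.14). Radiation raised OVOL1 under CB-839 by 0.72 in WT (adjusted p = 0.00939) and 0.63 in E79Q cells (adjusted p = 0.0148), and without drug its changes of 0.25 and -0.06 were not called. The WT call was lost without library 1 of either group (adjusted p = 0.0573 and 0.0655), and the E79Q call without library 2 of either group (adjusted p = 0.0818 and 0.0932). No genotype comparison of OVOL1 was called.

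GRHL3, a grainyhead factor of barrier formation, was lowest in untreated E79Q cells, at 0.326, 0.470 and 0.113 CPM (6, 8 and 2 counts). Untreated WT libraries had 0.714, 0.688 and 1.19 CPM, above all of them. E79Q libraries with CB-839 had 1.59, 1.60 and 1.43 CPM and WT libraries with CB-839 1.07, 1.77 and 1.13 CPM, and these groups overlapped. The genotype difference was -1.50 in untreated cells (SE 0.44, adjusted p = 0.0165). It was lost without library 3 of either group (adjusted p = 0.11 and 0.105).

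CB-839 raised GRHL3 by 2.32 in E79Q cells (SE 0.41, adjusted p = 0.000155), a 5.00-fold change, beside 0.61 in WT cells (adjusted p = 0.271). The difference between genotypes, 1.71 (SE 0.55), had an adjusted p of 0.0362, and was lost without the filter (adjusted p = 0.0655) and without any one of 8 of the 12 libraries (all but libraries 1 and 2 of untreated WT, 2 of untreated E79Q and 2 of WT with CB-839; adjusted p = 0.0525 to 0.131). Irradiated libraries had 1.01, 0.864 and 0.956 CPM in WT and 0.636, 1.19 and 1.28 CPM in E79Q, so that radiation raised GRHL3 in E79Q cells by 1.73 (SE 0.43, adjusted p = 0.00378). With radiation and CB-839 the values were 1.90, 2.11 and 2.38 CPM in WT and 1.08, 2.08 and 1.97 CPM in E79Q. The drug effect in irradiated WT cells was 1.17 (SE 0.32, adjusted p = 0.0206), lost without any one of the 3 irradiated libraries or library 3 with CB-839 (adjusted p = 0.0534 to 0.0728). In irradiated E79Q cells it was 0.76 (adjusted p = 0.0792), and 1.0 without library 1 with CB-839 (adjusted p = 0.0207).

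GRHL1, which controls desmosomal cadherin genes, was lower in E79Q cells in 3 of the 4 genotype comparisons and was called in no radiation or drug comparison. Untreated WT libraries had 4.40, 4.41 and 2.67 CPM and untreated E79Q libraries 2.18, 1.23 and 3.11 CPM, which overlapped. With CB-839 the values were 2.09, 3.37 and 3.26 CPM in WT and 1.72, 1.66 and 1.27 CPM in E79Q, and after radiation 2.73, 3.10 and 2.27 CPM against 1.27, 1.25 and 1.61 CPM. The last pairs of groups did not overlap. The log2 differences were -0.81 (SE 0.27, adjusted p = 0.0357), -0.91 (SE 0.30, adjusted p = 0.0382) and -0.98 (SE 0.29, adjusted p = 0.0315). The first was lost without libraries 1 or 2 of either group, library 2 of E79Q being the one with raised collagen genes (adjusted p = 0.0883 to 0.206). The second was lost without 5 of its 6 libraries (all but library 1 of WT; adjusted p = 0.0588 to 0.163) and the last without libraries 1 or 2 of either group (adjusted p = 0.0823 to 0.129). With both treatments WT libraries had 2.56, 2.33 and 2.43 CPM and E79Q libraries 0.962, 1.99 and 2.02 CPM, a difference of -0.53 (adjusted p = 0.319). Radiation of E79Q cells gave -0.67 (adjusted p = 0.121), and -0.96 without the collagen-rich library 2 (adjusted p = 0.0248).

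ZNF750, a target of p63 that induces KLF4 in differentiating keratinocytes, was called in none of the 16 comparisons, by edgeR or by DESeq2. Its counts of 4 to 21 per library left wide intervals: the genotype difference in untreated cells was -0.85 (95% interval -1.81 to 0.11) and under CB-839 -1.12 (-2.09 to -0.14, unadjusted p = 0.0223, adjusted p = 0.11). Untreated WT libraries had 0.934, 0.745 and 0.681 CPM, above the E79Q libraries at 0.435, 0.529 and 0.340 CPM. With CB-839 the values were 0.621, 1.14 and 0.901 CPM in WT and 0.276, 0.369 and 0.552 CPM in E79Q, also without overlap. Irradiated groups overlapped, with means of 0.611 ± 0.224 CPM in WT and 0.574 ± 0.142 CPM in E79Q, and of 0.446 ± 0.227 and 0.653 ± 0.336 CPM with CB-839 (SD, n = 3). The radiation change in WT cells under CB-839, -1.0 (adjusted p = 0.102), was called without library 2 of the irradiated group, at -1.43 (adjusted p = 0.0493).

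**Figure D3:**
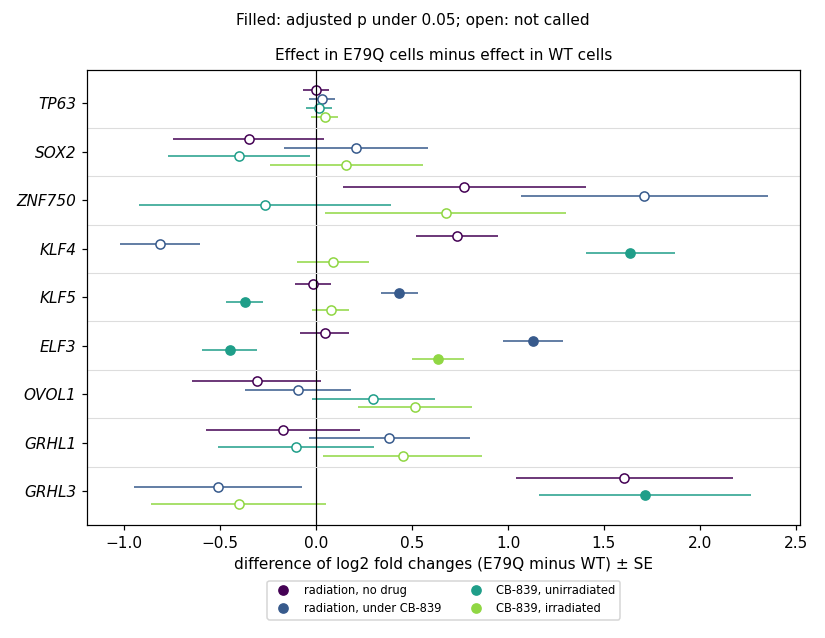
Difference between E79Q and WT cells in the radiation effect and in the CB-839 effect, on the log2 scale, with bars of 1 SE and filled points called at an adjusted p under 0.05. KLF4 lies at 1.64 for CB-839 in unirradiated cells and ELF3 at 1.13 for radiation under CB-839, while all 4 TP63 values lie between -0.00 and 0.04.

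Over the 8 group means of log2 CPM, which share libraries and depth, the factors did not all follow one pattern. The 3 pairs with the highest Pearson's r were KLF5 with ELF3 (0.911), TP63 with GRHL1 (0.902) and GRHL1 with ELF3 (0.839). The 3 lowest were TP63 with KLF4 (-0.806), KLF5 with OVOL1 (-0.788) and SOX2 with KLF4 (-0.742). Of 10942 protein-coding genes compared in the same way, the most like ELF3 were MPI (r = 0.985), DHCR7 (0.984) and TCFL5 (0.984), and the most like TP63 were MSMO1 (0.987), IFT52 (0.979) and PEX11A (0.972). KLF4 was most like N4BP3 (0.985), TMEM254 (0.984) and LARP6 (0.982), and KLF5 most like GPRC5A (0.976), IGFBP6 (0.974) and S100A10 (0.974). The nearest gene was SH3BP1 for GRHL1 (0.990), DKK3 for OVOL1 (0.983), BUD13 for SOX2 (0.973), PPP4R4 for GRHL3 (0.962) and CMC1 for ZNF750 (0.892). With 8 points and this many genes, high values of r are found by selection alone, so these are descriptions.

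Other genes of squamous epithelium were counted from gene lists, first in the genotype comparisons, where 19.7%, 15.0%, 9.64% and 7.26% of all genes were called in untreated cells, under CB-839, after radiation and after both. Of 24 basal squamous genes, 15 were lower and 3 higher in untreated E79Q cells (median -0.38), with KRT14 at -1.49 and KRT17 at -1.38, the keratins of basal and activated keratinocytes, and with LAMA3 at 0.88 and LAMB3 at 0.34, subunits of laminin-332, on the higher side. Under CB-839, 11 were lower and 3 higher (median -0.24), after radiation 13 and 3 (median -0.30), and after both 9 and 2 (median -0.22). Of 16 epithelial junction and splicing genes, 15 were lower and none higher in untreated E79Q cells (median -0.51), with CDH1, which encodes E-cadherin, at -0.93 and JUP at -0.80. The count lower was 3 under CB-839 (median -0.10), 11 after radiation (median -0.37) and 2 after both (median -0.12).

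Of 20 other transcription factors of squamous epithelium tested out of 23, 10 were lower and 1 higher in untreated E79Q cells (median -0.23). CEBPD at -1.34 and EHF, an ETS factor related to ELF3, at -1.25 were the lower ones with the smallest p, and RUNX1 at 0.25 was the higher one. Under CB-839, 6 were lower and 2 higher (CEBPB 0.38, PRDM1 0.89). After radiation 7 were lower, and after both treatments 1 was lower and 1 higher. Of 8 mesenchymal transcription factors, which repress junction genes, 3 were higher and none lower in untreated E79Q cells (median 0.67), with SNAI2 at 0.51. With CB-839 3 were higher, after radiation 2 and after both 4, and none was lower. ZEB1 was higher in all 4 genotype comparisons, by 1.93, 1.32, 1.49 and 1.26, from group means of 1.07 ± 0.167 CPM in untreated WT to 4.10 ± 0.601 CPM in untreated E79Q cells (SD, n = 3).

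The fibroblast collagen genes COL1A2 and COL1A1 were called higher in the same untreated comparison, by 3.33 and 1.21, and without library 2 of untreated E79Q they were at 0.35 (adjusted p = 0.738) and 0.15 (adjusted p = 0.561). Of the 5 tested markers of other cell types, these 2 were called higher and 1 lower, the endothelial marker VWF at -0.78. None of the 5 was called without that library. Without that library, 3 mesenchymal factors were again called higher and none lower (median 0.71), with ZEB1 at 1.90. Lower calls without it numbered 11 of 16 for the junction and splicing genes (median -0.51), 14 of 24 for the basal genes (median -0.38), 8 of 21 for the other transcription factors (median -0.24) and 3 of 13 for the differentiation genes (median -0.48).

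Only 13 of 32 differentiation and cornified envelope genes were high enough to be tested, and they showed no common direction. In untreated E79Q cells 3 were lower and 1 higher (median -0.41), under CB-839 1 was lower and 3 higher (median -0.05), and after radiation and after both treatments 2 were lower and 1 higher (medians -0.27 and 0.05). PPL, which encodes the envelope protein periplakin, was lower in E79Q cells in all 4, by -0.47, -0.78, -0.53 and -0.42, and CLDN4, a tight junction claudin, higher in all 4, by 0.32, 0.71, 0.31 and 0.41. In these bulk libraries, fewer cells of a type and less RNA per cell cannot be told apart.

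With radiation, 4 of the 13 differentiation genes rose and 1 fell in WT cells, where 17.9% of all genes were called, and 5 rose in E79Q cells, where 22.3% were. Under CB-839, 3 rose and 1 fell in WT and 3 rose in E79Q, beside 23.7% and 29.2% of all genes; counts of this size are not a result about the list. CLDN4 rose in all 4, by 0.76, 0.75, 0.93 and 0.63, in WT and E79Q cells without drug and then under it. The gene that fell in WT cells was FLG, at -0.77 without drug and -0.88 under it. Among the 20 other squamous factors tested, radiation without drug raised 3 and lowered 8 in WT cells. In E79Q cells it raised 4 and lowered 7. Under CB-839 it raised 5 and lowered 3 in WT and raised 7 and lowered 4 in E79Q. CEBPD (-1.04) and TP73 (-0.85) fell in WT cells without drug. PRDM1, chosen after its values were seen, rose in all 4, by 0.91, 1.50, 1.63 and 1.02. Of the 16 junction and splicing genes, radiation without drug raised 6 in WT and 10 in E79Q cells and lowered none. Without library 2 of untreated E79Q, 9 were raised in E79Q cells. Under CB-839 radiation raised 9 in WT cells, and raised 10 and lowered 1 in E79Q cells. The shares of all genes called are those given above for radiation. CB-839 lowered 7 of the 16 junction and splicing genes and raised none in unirradiated WT cells, where 14.8% of all genes were called, and raised 6 and lowered 2 in E79Q cells, where 19.8% were. The difference between genotypes was called for 8 of the 16, all more positive in E79Q, beside 14.3% of all genes. Without library 2 of untreated E79Q the counts were 4 raised and 2 lowered in E79Q cells, and 8 for the difference. CLDN7, a claudin, had a difference of 2.18 and ESRP1, an epithelial splicing factor, one of 0.52. EHF, the relative of ELF3, differed by 1.20 in the same comparison, opposite in sign to the -0.45 of ELF3. In irradiated WT cells CB-839 lowered 2 of the 16 junction and splicing genes and raised none, where 9.53% of all genes were called. In irradiated E79Q cells it raised 9 and lowered 2, where 26.0% were. The difference between genotypes there was called for 5, all more positive in E79Q, beside 1.91% of all genes.

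**Figure D4:**
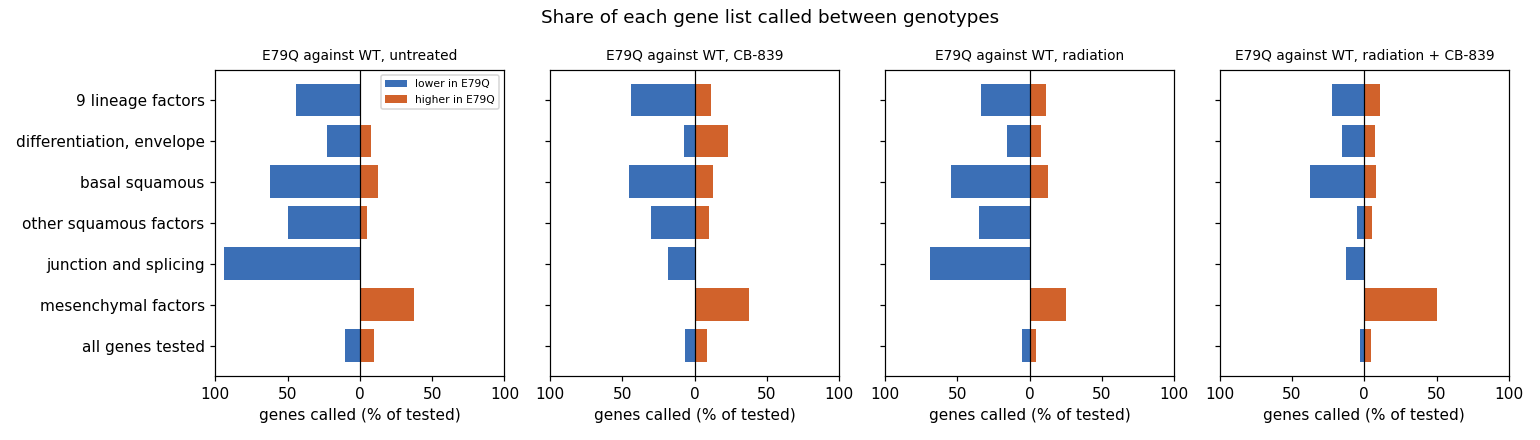
Share of tested genes, in percent, called higher (right) or lower (left) in E79Q than in WT cells for the 9 factors, each gene list and all genes, under the 4 treatments. Junction and splicing genes go from 15 of 16 lower in untreated cells to 3 of 16 under CB-839.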

How the data were processed

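RNA from 24 SAS libraries in 8 groups of 3 was sequenced, and the authors deposited raw counts per gene, with gene lengths beside them (other values). Reads were aligned with STAR and counted with HTSeq on GRCh38, per the submitters' processing notes; versions, annotation, trimming and strand setting are each not given in the sources used here. Columns were matched to samples by name: the irradiated E79Q libraries with CB-839 have their own column prefix, read against the titles.

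All 24 libraries were fitted together with edgeR 4.0.16 (limma 3.58.1, R 4.3.3): filterByExpr with a minimum count of 10, TMM scaling, 1 mean per group, 16 residual degrees of freedom, the quasi-likelihood test, and Benjamini-Hochberg adjustment over 15956 genes with a threshold of 0.05. Differences and SEs are log2 values computed here, and 95% intervals use the SE and those degrees of freedom. The intervals can be wider than the quasi-likelihood test implies. OVOL1 between genotypes under CB-839, with an unadjusted p of 0.0464 by that test, had an interval of -0.0062 to 0.88. With 3 against 3 libraries an exact permutation test cannot go below p = 0.1, so none was used. CPM uses TMM library sizes and RPKM also the deposited lengths. The common biological coefficient of variation was 7.19%. Named genes are all 9 factors and the genes most like each over group means. From each list, genes were named among the 2 called with the smallest p in each direction, and not all of these are given. The values of PRDM1, EHF and ELF3-AS1 beyond this rule were chosen after they were seen. The factors and lists were chosen with earlier results of these data known. Alternatives were DESeq2 1.42.0, RLE size factors, no filter, the compared groups alone, a replicate block and leaving out each library, and, added after seeing the data, leaving out the 4 libraries with the highest positive correlation of their deviations with gene GC content (0.166 to 0.479; 1 library at -0.380 was kept), and counting gene lists without library 2 of untreated E79Q. Motifs were matched by letters in RefSeq windows.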

Additional observations from a re-analysis of the deposited data

Results flagged for a closer look

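Effects of a treatment that differed between the genotypes, by the test of the difference itself in edgeR with Benjamini-Hochberg adjustment, involved 4 of the 9 factors. For CB-839 in unirradiated cells the difference, E79Q minus WT on the log2 scale, was 1.64 for KLF4 (adjusted p = 1.34e-05), whose level fell in WT and rose in E79Q cells. It was 1.71 for GRHL3 (adjusted p = 0.0362), which rose in E79Q cells, -0.37 for KLF5 (adjusted p = 0.00904), which fell further in E79Q cells, and -0.45 for ELF3 (adjusted p = 0.0356), which did so too. For CB-839 in irradiated cells it was 0.64 for ELF3 (adjusted p = 0.0127), which fell less in E79Q cells. For radiation under CB-839 it was 1.13 for ELF3 (adjusted p = 0.000104), which fell in WT and rose in E79Q cells, and 0.43 for KLF5 (adjusted p = 0.0206). The unirradiated E79Q libraries with CB-839 enter 6 of these 7 differences, so they are not independent of each other. Only the 1.64 of KLF4, the -0.37 of KLF5 and the 1.13 of ELF3 were called in every alternative run. The 1.71 of GRHL3, the -0.45 and 0.64 of ELF3 and the 0.43 of KLF5 were each lost in at least 1 of these runs.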

How the results depend on the processing

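Of 144 tests of the 9 factors, 59 were called, and 40 of the calls held in every alternative run; no called factor changed sign. RLE size factors changed no count of factors called. The genotype difference in the radiation effect without drug went from 0 factors called to 1 under DESeq2, with the compared groups alone, and without the 4 libraries of highest GC correlation. The difference in the CB-839 effect in unirradiated cells went from 4 to 2 with no filter and to 2 without those 4 libraries, and the difference in the radiation effect under CB-839 from 2 to 1 with the compared groups alone and to 3 under DESeq2 and without those 4 libraries. The causes were not tested.

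Leaving out 1 library gave these ranges of factors called. For E79Q against WT they were 3 to 4 untreated, 4 to 5 with CB-839, 2 to 3 after radiation and 2 to 3 after both. For radiation they were 2 to 3 in WT, 3 to 6 in WT under CB-839, 4 to 6 in E79Q and 4 to 5 in E79Q under CB-839. For CB-839 they were 3 to 4 in WT, 3 to 5 in irradiated WT, 5 to 5 in E79Q and 4 to 5 in irradiated E79Q. For the genotype differences they were 0 to 1 for radiation, 1 to 3 for radiation under CB-839, 2 to 4 for CB-839 and 0 to 1 for CB-839 in irradiated cells.

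No pairing by replicate number was seen: 0 of 84 same-number pairs had deviations that correlated above 0.1, and 4 of 24 libraries were most like one of their own number. These values do not tell whether libraries of the same number were handled together. With a replicate block, 4 calls were not made: GRHL1 under CB-839 between genotypes (-0.91, adjusted p = 0.052), KLF4 after radiation between genotypes (0.44, adjusted p = 0.0587), SOX2 with radiation in E79Q cells (-0.78, adjusted p = 0.0561) and KLF4 with CB-839 in irradiated WT cells (0.45, adjusted p = 0.0525).

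Some counts over all genes also moved. With the compared groups alone, E79Q against WT went from 1538 to 3081 genes after radiation and from 1159 to 234 after both treatments, radiation from 2855 to 4322 in WT and from 4667 to 1667 in E79Q under CB-839, and CB-839 in irradiated E79Q from 4141 to 1601. The differences went from 201 to 611, 172 to 40 and 305 to 132 for radiation, radiation under CB-839 and CB-839 in irradiated cells. Without the 4 libraries, E79Q against WT after radiation went to 2606, radiation in WT to 4313, and the first and last of those differences to 507 and 719. Leaving out 1 library took CB-839 in irradiated WT from 1520 to 638 (library 1 with both treatments), E79Q against WT after both to 740 (WT library 3), radiation in E79Q under CB-839 to 3073 (library 2 with both treatments), and those 3 differences to 107 to 144, 92 to 252 and 145 to 545, with 252 and 545 both without library 1 of E79Q with both treatments. Depth limits GRHL3, with 2 to 46 counts per library, and ZNF750, with 4 to 21.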
